A study of Gallus gallus with 8 samples.

Results

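Glucocorticoid and fasting response genes were examined in chick growth plate chondrocytes, the cartilage cells that lengthen a bone, taken from the tibiotarsus of the lower leg. The set has 10 genes: FKBP5, NR3C1, PDK4, GLUL, SGK1, KLF9, PIK3IP1, SESN1, MAOA and TSC22D3. They were chosen by name, on differences between hypertrophic and proliferative cells already seen on these arrays, so their differences are given as a description, and no p-value is read for them. Every probe set whose single gene symbol is one of these names was taken. This gave 18 probe sets of 9 genes, out of 38439 probe sets and 13009 genes on the array. TSC22D3 had no probe set under that symbol alone and was not analysed here.

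Hypertrophic chondrocytes came from chicks 1 day old and proliferative chondrocytes from chicks 3 weeks old, with 4 Affymetrix arrays in each group and no treatment. The cells were isolated and pooled, and no strain, sex or hormone level is given in the labels. Cell stage and age cannot be told apart, because each stage was sampled at its own age. The labels do not say that arrays of a group came from separate pools, so errors describe the spread between these arrays, which may be technical.

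Glucocorticoids cross the cell membrane and bind the glucocorticoid receptor, which HSP90 and its co-chaperones hold ready in the cytoplasm. The bound receptor enters the nucleus and switches on genes that restrain growth signalling and shift fuel use away from glucose. Fasting engages many of the same genes through FOXO transcription factors, which become active when insulin signalling through PI3K and AKT is low. In mammals an excess of glucocorticoid slows growth at the growth plate.

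Values are log2 units made by RMA, a method that corrects background, equalises the distributions of the arrays and combines the probes of a set. A level of 4.75 was used as background. It is the highest, over the 8 arrays, of the 95th percentile of 744 probe sets whose identifiers name viral or reporter sequences. Probe sets of a gene are numbered from the brightest. Levels of different probe sets cannot be set against each other on this scale.

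In both groups array 4 almost repeated array 3. Over 2939 probe sets with a mean above 9, the SD of their difference was 0.150 among proliferative arrays and 0.177 among hypertrophic ones, where every other pair of a group had 0.366 to 0.951. The values do not show that they are independent samples; they were counted separately, and counts of calls are also given with the pair averaged. Chondrocyte markers were present: of 14 listed, 13 were measured and each had at least 1 group mean above background. Their summed level, as log2 of the summed linear values, was 17.28 to 17.46 on proliferative and 17.06 to 17.25 on hypertrophic arrays.

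FKBP5 stood far higher in hypertrophic cells, while the receptor itself gave no signal above background. FKBP5 encodes FKBP51, an HSP90 co-chaperone that lowers the receptor's affinity for hormone and is itself induced by the receptor, which closes a feedback loop. Its brightest probe set read 6.53, 7.53, 6.25 and 6.40 on proliferative arrays 1 to 4, and 10.35, 9.86, 9.93 and 10.16 on hypertrophic arrays 1 to 4. The 2 groups were separated by a wide gap, and proliferative array 2 was the highest of its group. The log2 difference, hypertrophic minus proliferative, was 3.40 ± 0.27 (standard error of the limma fit, n = 4 per group), which is 10.5-fold. Its other 2 probe sets differed by 3.91 ± 0.48 and 3.87 ± 0.63, again with no overlap between groups. The dimmest one lay below background on proliferative arrays 3 and 4. It differed by 2.21 with arrays 1 and 2 of each group alone, and by 5.54 in arrays 3 and 4.

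NR3C1 encodes the glucocorticoid receptor. Its brightest probe set read 4.03, 4.06, 4.26 and 4.40 on proliferative arrays and 3.61, 3.87, 4.44 and 4.51 on hypertrophic arrays. All 3 probe sets lay below background on all 8 arrays, so no level or direction can be read from them. Their estimates were -0.08 ± 0.21, 0.10 ± 0.11 and -0.04 ± 0.17.

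**Figure D1:**
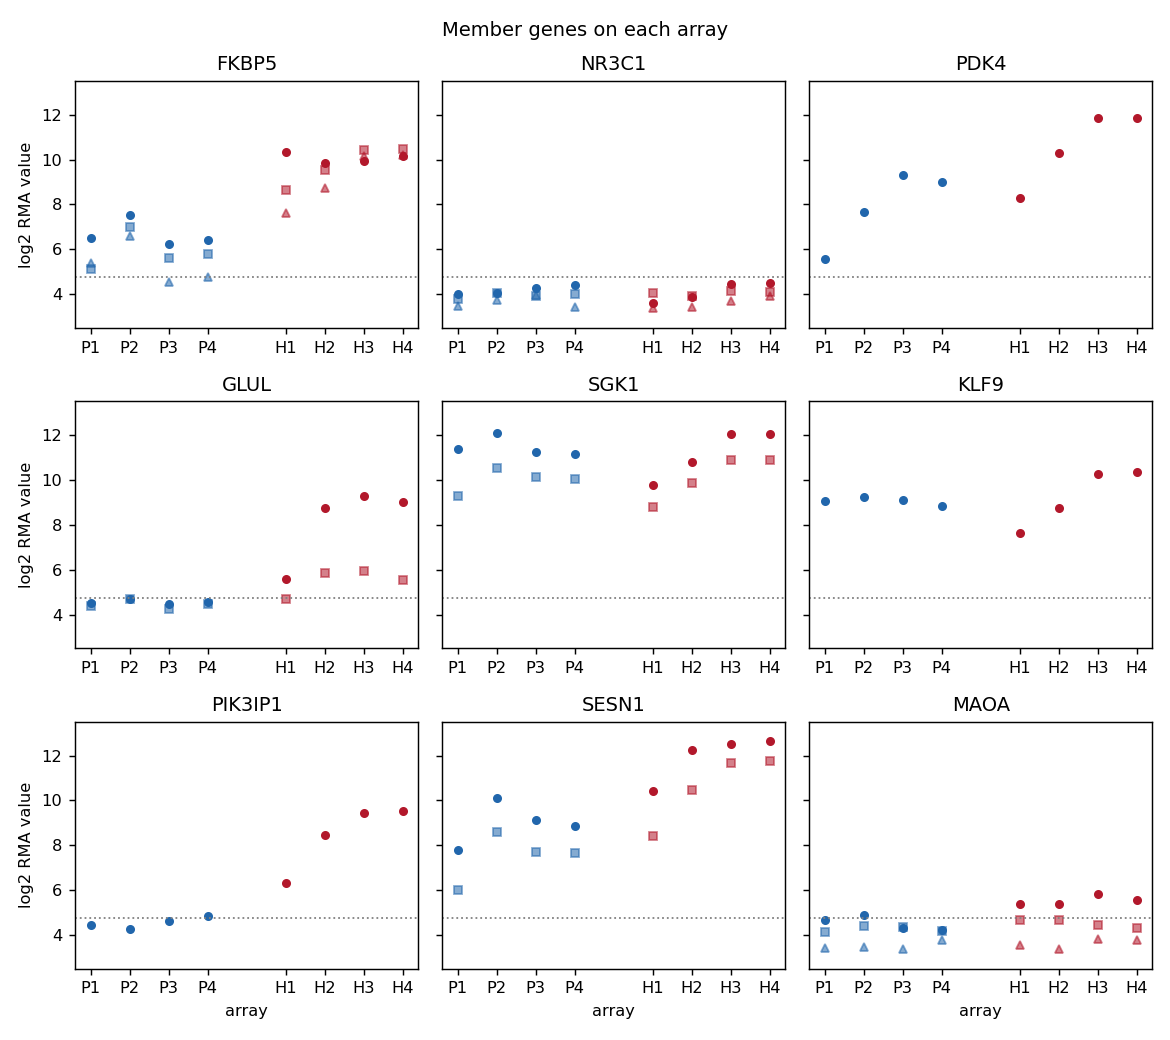
Level of each member gene on each array, in log2 RMA units, for proliferative arrays P1 to P4 (blue) and hypertrophic arrays H1 to H4 (red). Circles, squares and triangles mark the probe sets of a gene from the brightest to the dimmest, and the dotted line is the background level of 4.75. FKBP5 groups stand apart, the NR3C1 points lie under the line, and hypertrophic array 1 lies under the other hypertrophic arrays for GLUL, PDK4, PIK3IP1, SESN1, SGK1 and KLF9.

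Among enzymes of fuel and nitrogen metabolism, GLUL and PDK4 had the large differences and MAOA a small one. GLUL encodes glutamine synthetase, which joins ammonia to glutamate and is a classic glucocorticoid-induced enzyme of the chick embryo retina. Its brighter probe set read 4.53, 4.69, 4.48 and 4.58 on proliferative arrays, all below background, and 5.59, 8.76, 9.29 and 9.01 on hypertrophic arrays. The groups did not overlap, but hypertrophic array 1 lay close to the background and far under the other hypertrophic arrays. The difference was at least 3.41 against the background level, or at least 10.6-fold, with an estimate of 3.59 ± 0.71, or 4.45 without hypertrophic array 1. This bound takes no account of sampling error. The dimmer GLUL probe set differed by at least 0.76 (estimate 1.06 ± 0.26) and its groups overlapped.

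PDK4 is a mitochondrial kinase that switches off pyruvate dehydrogenase and so spares glucose when fat is burned. It read 5.57, 7.69, 9.33 and 9.01 on proliferative arrays and 8.28, 10.29, 11.86 and 11.87 on hypertrophic arrays. The groups overlapped, because hypertrophic array 1 lay under proliferative arrays 3 and 4. The difference was 2.68 ± 0.99, or 6.39-fold, and ran from 1.90 without proliferative array 1 to 3.44 without hypertrophic array 1. Between arrays of the same number it was 2.70, 2.61, 2.53 and 2.86. The array numbers are not known to mark a shared batch, and the spread within a group was wider than these differences vary: 3.75 from lowest to highest in proliferative and 3.59 in hypertrophic cells.

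MAOA, monoamine oxidase A of the outer mitochondrial membrane, breaks down amines such as serotonin and noradrenaline. Its brightest probe set read 4.66, 4.91, 4.30 and 4.25 on proliferative and 5.40, 5.38, 5.84 and 5.56 on hypertrophic arrays. The groups did not overlap, though both lay near the background, and the difference was at least 0.75 (estimate 1.02 ± 0.18). Both other MAOA probe sets were below background on all 8 arrays, with estimates of 0.26 ± 0.12 and 0.12 ± 0.14.

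The 2 members that act as brakes on growth signalling were both much higher in hypertrophic cells. PIK3IP1 is a transmembrane protein that binds PI3K and holds back its activity. It read 4.47, 4.26, 4.65 and 4.85 on proliferative arrays and 6.31, 8.46, 9.45 and 9.52 on hypertrophic arrays. Even the lowest hypertrophic array stood above every proliferative array, of which 3 were below background. The difference was at least 3.66, or 12.6-fold (estimate 3.88 ± 0.62, or 4.59 without hypertrophic array 1).

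SESN1, or sestrin 1, is a stress-induced protein that restrains mTORC1, the kinase complex that couples nutrients to growth. Its brighter probe set read 7.77, 10.12, 9.13 and 8.88 on proliferative arrays and 10.44, 12.25, 12.53 and 12.63 on hypertrophic arrays. The groups came within a short distance of each other, at proliferative array 2 and hypertrophic array 1, without overlap. The difference was 2.99 ± 0.58, or 7.94-fold. The dimmer SESN1 probe set differed by 3.09 ± 0.78, or 3.80 without hypertrophic array 1, and there the same 2 arrays crossed.

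SGK1 and KLF9 showed no consistent difference between the groups, and their direction turned with the arrays used. SGK1, the serum and glucocorticoid regulated kinase, is a relative of AKT that promotes sodium transport and cell survival. Its brighter probe set read 11.40, 12.10, 11.23 and 11.17 on proliferative and 9.79, 10.80, 12.04 and 12.05 on hypertrophic arrays. Hypertrophic arrays 1 and 2 lay below all proliferative arrays, while hypertrophic arrays 3 and 4 lay near the top of them. Over all arrays the difference was -0.31 ± 0.49, from -1.46 in arrays 1 and 2 to 0.84 in arrays 3 and 4, and 0.15 without hypertrophic array 1. The dimmer SGK1 probe set gave 0.11 ± 0.47, with -0.58 and 0.79 in the same pairs, and was -0.15 without hypertrophic array 3 or 4 and -0.13 without proliferative array 1.

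KLF9 is a zinc finger transcription factor that glucocorticoid and thyroid hormone both induce. It read 9.06, 9.26, 9.13 and 8.82 on proliferative and 7.65, 8.74, 10.29 and 10.36 on hypertrophic arrays. Proliferative arrays were tightly grouped, with hypertrophic arrays 1 and 2 below and 3 and 4 above all of them. The difference was 0.19 ± 0.55 over all arrays, -0.97 in arrays 1 and 2 and 1.35 in arrays 3 and 4. Counting the mean of arrays 3 and 4 as 1 sample turned it to -0.19, and it was -0.15 and -0.18 without hypertrophic array 3 and 4.

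**Figure D2:**
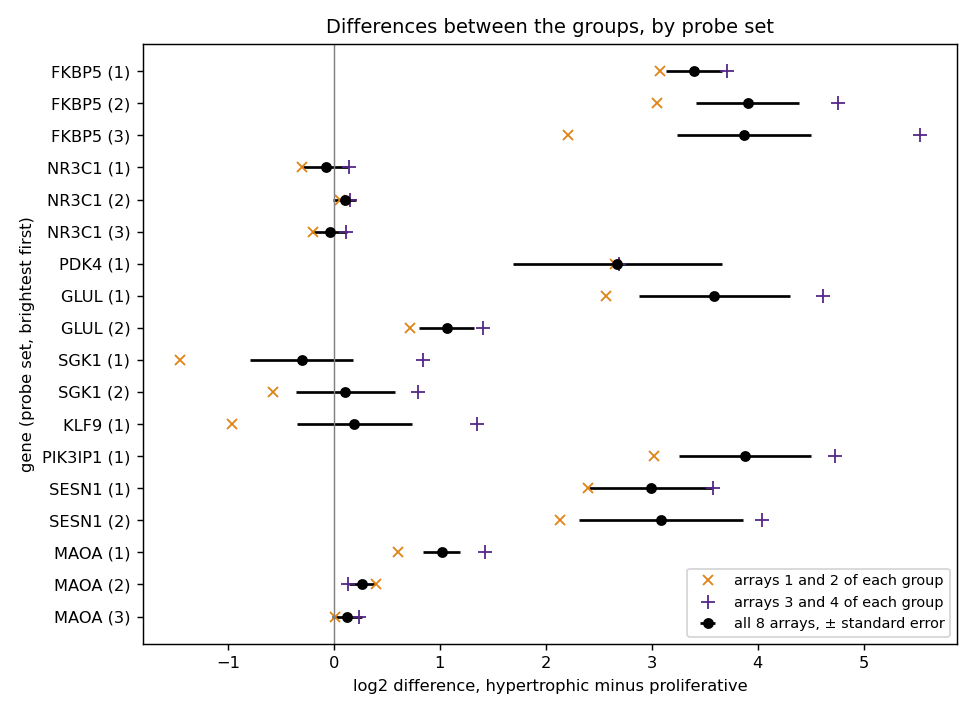
Log2 difference, hypertrophic minus proliferative, for the 18 probe sets. Black points and bars give the estimate over 8 arrays with its standard error, crosses the difference in arrays 1 and 2 and plus signs that in arrays 3 and 4. FKBP5, PDK4, GLUL, PIK3IP1 and SESN1 lie to the right of 0 in both pairs of arrays, while SGK1 and KLF9 lie on opposite sides, at -1.46 and 0.84 and at -0.97 and 1.35 for their brightest probe sets.

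In all, 7 of the 18 probe sets, of 5 genes, did not overlap between the groups, all with hypertrophic cells higher, and 11 overlapped. Over the whole array 7.06% of probe sets did not overlap in that direction. In the fit over all probe sets, an adjusted p under 0.05 in limma was reached by 9 member probe sets of the same 5 genes (FKBP5, GLUL, PIK3IP1, SESN1 and MAOA), and by 4.49% of all probe sets with hypertrophic cells higher. Members were picked for this contrast, so both counts follow from the choice and nothing is read from them. By their brightest probe sets, the median log2 difference was 2.68 over the 9 members, NR3C1 included, and -0.015 over all 13009 genes. This gap too follows from the choice, and nothing is read from it. With arrays 3 and 4 averaged, 2 member probe sets had an adjusted p under 0.05 in limma. Leaving out 1 array gave 5 to 10, with 5 without proliferative array 4, 6 without proliferative array 3 or hypertrophic array 2 or 4, and 10 without hypertrophic array 1. Over the whole array 1726 probe sets were higher and 1642 lower, or 1580 and 2349 with arrays centred on ribosomal protein genes.

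The spread within the groups, which was not itself used to choose the members, was wide for most of them. A gene chosen for rising from background can span more in hypertrophic cells, so this spread is not fully independent of the choice. From lowest to highest hypertrophic array, 6 of the 9 members spanned over 2 log2 units by their brightest probe sets, against 3.14% of all genes. The median span was 2.26 for members and 0.55 for all genes. Those are 13009 genes, of which 3104 had both group means below background. In proliferative cells 2 members, PDK4 and SESN1, spanned over 2 units, against 0.492% of genes, with median spans of 0.66 and 0.43. Hypertrophic array 1 was the lowest of its group for 7 of 9 members and for 32.9% of all genes. Hypertrophic array 3 or 4 was the highest for 8 members and for 38.9% of genes. FKBP5 was the exception, with array 1 highest. NR3C1, below background on every array, is counted among the 7 and among the 8. Proliferative array 2 was the highest of its group for 6 members, against 29.2% of genes.

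Members also departed from their group means together. Over the 8 arrays, Pearson's r between deviations was above 0.5 in 18 of the 28 pairs of the 8 members with a mean above background, with a median of 0.66, while 22.8% of pairs among 9640 genes with a mean above background had r above 0.5 and the median was 0.028. The closest pairs were SGK1 with KLF9 at r = 0.96, GLUL with PIK3IP1 at 0.95 and KLF9 with PIK3IP1 at 0.92. FKBP5 did not go with these, at r between -0.36 and 0.23 for every member except MAOA, with 0.61. NR3C1, left out of these counts because it lay below background, had r from 0.59 to 0.91 with PDK4, GLUL, SGK1, KLF9, PIK3IP1 and SESN1. GLUL, PIK3IP1 and MAOA were kept by their mean over the 8 arrays. Their proliferative means of 4.57, 4.56 and 4.53 lay below background, so their proliferative deviations are of values at or near it. GLUL and PIK3IP1 spanned 0.21 and 0.59 on proliferative arrays, against 3.70 and 3.21 on hypertrophic ones. The points share arrays and their normalisation, and arrays 3 and 4 nearly repeat each other. With those averaged, SGK1 with KLF9 and GLUL with PIK3IP1 both had r = 0.96 over 6 values.

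**Figure D3:**
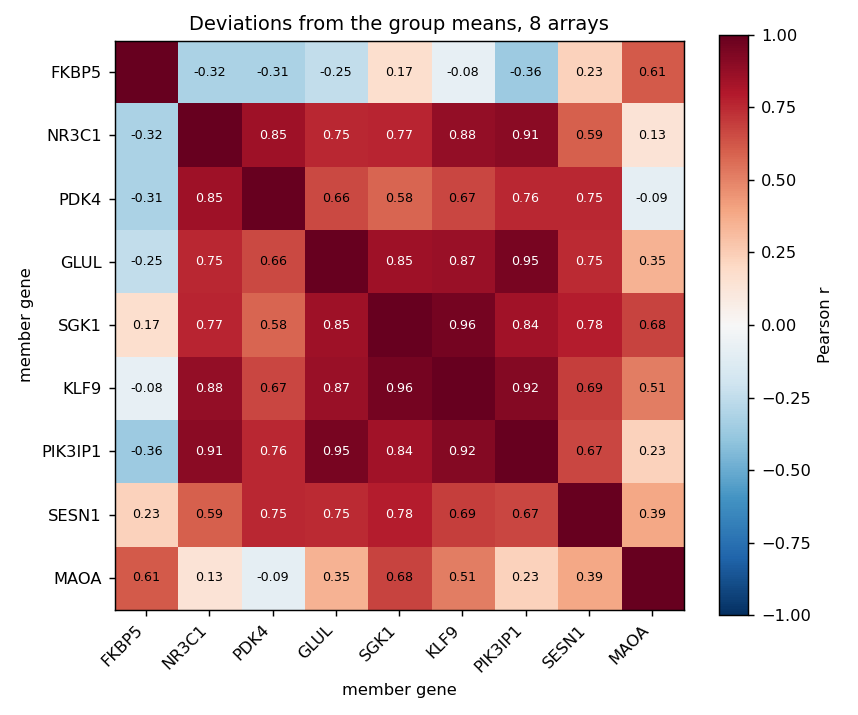
Pearson's r between member genes, from the deviations of their brightest probe sets from the group means over 8 arrays. Colour and printed value give r. The block from NR3C1 to SESN1 holds values from 0.58 to 0.96, while the row of FKBP5 runs from -0.36 to 0.61.

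Other measures moved with the same arrays. The 3′ minus 5′ difference of the ACTB control probe sets, a sign of RNA quality, was 1.90 and 1.80 on proliferative arrays 1 and 2 against 0.97 and 0.86 on arrays 3 and 4. On hypertrophic arrays it was 1.58, 1.35, 0.86 and 1.06. For GAPDH the same difference ran from -0.53 to -0.34 in proliferative cells and was -0.06 on hypertrophic array 1 against -0.45 to -0.37 on the other 3. The summed level of 12 adipocyte markers was 9.84, 10.59, 11.44 and 11.50 on hypertrophic arrays 1 to 4, and 10.23 to 10.38 on proliferative arrays. Among them G0S2, which weighs most in this sum on arrays 3 and 4, read 6.94, 9.06, 10.62 and 10.58. Not all markers rose so: FABP4, PLIN1, CIDEC, CIDEA and LEPR were no higher on array 4 than on array 1. FABP4 read 6.75, 5.96, 5.91 and 6.23 on hypertrophic arrays 1 to 4. The summed levels of leukocyte and osteoclast markers ran opposite to the adipocyte sum, from 10.72 and 12.80 on hypertrophic array 1 to 9.90 and 11.93 on array 4. Single markers in these sums went both ways. The leukocyte marker CD74 read 9.79, 8.63, 7.77 and 7.69 on hypertrophic arrays 1 to 4, whereas LAPTM5 read 6.95, 8.39, 8.32 and 8.48. The osteoclast marker TNFRSF11A was no lower on array 4 than on array 1. Proliferative arrays also differed in markers of later stages, named after their values were seen. COL10A1, the collagen X gene of hypertrophic cartilage, read 11.99, 13.42, 14.14 and 14.07 on them, and the bone marker IBSP 7.65, 9.76, 11.12 and 11.19. Both were lowest on array 1 and next on array 2, as was PDK4, whereas COL1A1 and BGLAP did not rise so. COL10A1 differed between the groups by 0.66 ± 0.43 and did not pass (adjusted p = 0.444 in limma). The part of these measures in the members' values was not tested.

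Probe sets of a gene followed one another closely in 3 of the 6 members that have several. Deviations of the 2 probe sets had r = 0.96 in SESN1, 0.93 in GLUL and 0.91 in SGK1 over 8 arrays. In FKBP5 the 2 dimmer probe sets had r = 0.89 with each other, but r = 0.42 and 0.41 with the brightest. They read 8.66, 9.53, 10.41 and 10.48, and 7.63, 8.75, 10.15 and 10.20 on hypertrophic arrays 1 to 4, so both were lowest on array 1, where the brightest was highest. The low r of FKBP5 with other members therefore concerns its brightest probe set. The 3 probe sets of MAOA had r of -0.10, 0.15 and -0.70, and those of NR3C1 0.36 to 0.62, with the 2 dimmer MAOA probe sets and all of NR3C1 below background.

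Genes whose level over the 8 arrays was most like that of FKBP5, among 9391 named genes above background, were OLFML2B, HHEX and ALCAM, with Pearson's r of 0.992, 0.991 and 0.990. OLFML2B is an extracellular matrix protein, HHEX a homeobox transcription factor and ALCAM a cell adhesion molecule. Their log2 differences were 2.09 ± 0.24, 3.37 ± 0.19 and 2.71 ± 0.15. With the group means removed, r with FKBP5 was 0.95, 0.79 and 0.78. For NR3C1 the most similar were STAM2, ARRDC1 and STRN3, with r of 0.972, 0.972 and 0.970, set against a gene that did not rise above background.

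Other glucocorticoid-induced genes showed no common shift. Of 30 listed outside the set 22 were measured, and PER1, ZBTB16, CEBPD and TXNIP were among those that were not. Of the 22, 2 rose, 1 fell and 19 missed the threshold, with a median difference of 0.013. Over all genes 7.34% were called higher and 5.60% lower. The cell surface protein AMIGO2, below background in proliferative cells, rose by 1.22 or more (estimate 1.94 ± 0.35, adjusted p = 0.0116, and 0.0016 to 0.0806 over 16 alternatives), while its other probe set did not pass. The transcriptional co-regulator CITED2 rose by 0.77 or more (estimate 1.08 ± 0.21, adjusted p = 0.0172, and 0.0037 to 0.175 over alternatives). Stomatin, STOM, a membrane protein, fell by 0.66 ± 0.12 (adjusted p = 0.0123, and 0.0071 to 0.121). Some widely used glucocorticoid targets did not pass. The phosphatase DUSP1 differed by -0.31 ± 0.32, the clock gene PER2 by -1.13 ± 0.45 and KLF15 by -0.33 ± 0.54 (adjusted p = 0.649, 0.175 and 0.806). TAT, PCK1 and DDIT4 had both means below background. These 6 were named after their values were seen. With arrays 3 and 4 averaged none passed, 5 rose and 2 fell without hypertrophic array 1, and 1 rose without proliferative array 3 or 4.

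Among partners of the receptor and enzymes of steroid handling, 19 genes were measured, of which 2 fell and 17 did not pass, with a median of 0.069. BAG1, a co-chaperone that binds the HSP70 chaperone and the receptor, fell by 0.97 ± 0.18 (adjusted p = 0.0139, and 0.0047 to 0.0508 over 16 alternatives). The receptor coactivator NCOA3 fell by 0.69 ± 0.16 (adjusted p = 0.0303, and 0.0149 to 0.183), passing in 9 of 16. The chaperones HSP90AA1 and HSP90AB1 differed by -0.51 ± 0.35 and 0.58 ± 0.17, and FKBP4, the co-chaperone that opposes FKBP51, by 0.26 ± 0.15 (adjusted p = 0.461, 0.0699 and 0.376). NR3C2, the mineralocorticoid receptor, which also binds glucocorticoids, was measured above background, at 7.47 in proliferative and 6.11 in hypertrophic cells, and its difference of -1.36 ± 0.38 missed the threshold (adjusted p = 0.0587, and 0.0193 to 0.139 over alternatives, passing in 7 of 16). These 4 were named after their values were seen. Averaging arrays 3 and 4 left 1 lower; 1 fell without hypertrophic array 2 or proliferative array 2 or 4, none without proliferative array 3, and 2 rose without hypertrophic array 1.

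Of 29 measured FOXO and fasting genes outside the set, 4 rose, none fell and 25 did not pass, with a median of 0.22. CCNG2, an unconventional cyclin that slows the cell cycle and a FOXO target, read 6.72, 7.15, 7.05 and 6.62 on proliferative and 8.21, 8.84, 9.03 and 8.94 on hypertrophic arrays. Its groups did not overlap, and it rose by 1.87 ± 0.20 (adjusted p = 0.0013, and 1.50e-04 to 0.0313 over 16 alternatives, all past the threshold). Its other probe set, at 1.33 ± 0.48, missed the threshold (adjusted p = 0.132). BNIP3, a mitochondrial protein of mitophagy, rose by 2.16 ± 0.40 (adjusted p = 0.0133, and 7.4e-05 to 0.159). SESN3, a sestrin like SESN1, rose by 2.08 ± 0.44 (adjusted p = 0.0230, and 8.7e-05 to 0.196), passing in 8 of 16, and CITED2, given above, is the fourth. IGFBP1, below background in proliferative cells, had the largest difference of the list but missed the threshold. It was higher by 1.53 or more (estimate 2.76 ± 0.76, adjusted p = 0.0580, and 3.70e-04 to 0.373 over alternatives), passing in 6 of 16. On hypertrophic arrays 1 to 4 it read 3.70, 6.23, 7.83 and 7.39, and it was named after its values were seen. FOXO1 and FOXO3 themselves differed by 0.44 ± 0.37 and -0.49 ± 0.50 and did not pass (adjusted p = 0.564 and 0.660). They read 8.74, 9.82, 10.42 and 10.71, and 7.19, 8.58, 9.26 and 9.45, on hypertrophic arrays 1 to 4, and were named after their values were seen. Both were lowest on array 1, as were 7 of the 9 members, among them NR3C1, which lay below background, and 32.9% of all genes. This was not particular to FOXO genes. DUSP1, KLF15 and HSP90AA1 were also lowest there, whereas CRISPLD2 and STUB1 were highest there. With arrays 3 and 4 averaged 1 gene rose, without proliferative array 3 or 4 it was 2, and without hypertrophic array 1 it was 9; 1 fell without hypertrophic array 3 or 4.

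In PI3K, AKT and mTOR signalling, 41 genes were measured: 5 rose, 3 fell and 33 missed the threshold, with a median of 0.10. NDRG1, a substrate of SGK1, averaged 7.54 ± 0.72 on proliferative and 11.10 ± 1.22 on hypertrophic arrays (SD, n = 4) and rose by 3.56 ± 0.58 (adjusted p = 0.0081, and 2.86e-04 to 0.118 over 16 alternatives). PIK3R1, a regulatory subunit of PI3K, was below background in proliferative cells and rose by 2.33 or more (estimate 2.47 ± 0.21, adjusted p = 5.44e-04, and 2.16e-04 to 0.0107, all past the threshold). Of its 4 probe sets 2 passed, the dimmer with both means below background, at 3.69 and 4.71. RRAGA, PRKAB1 and WDR59 complete the 5 that rose, by 0.67 ± 0.14, 0.62 ± 0.11 and 0.59 ± 0.12. Their adjusted p in limma was 0.0219, 0.0131 and 0.0186, up to 0.234, 0.101 and 0.272 over alternatives. They passed in 7, 14 and 8 of 16. The catalytic subunits PIK3CB and PIK3CG fell by 1.28 ± 0.28 and by 0.93 ± 0.24 (adjusted p = 0.0242 and 0.0472, up to 0.0781 and 0.302 over alternatives), passing in 11 and 6 of 16. PIK3R3, another regulatory subunit, was the third that fell, by 0.83 ± 0.20 (adjusted p = 0.0373, up to 0.0965), passing in 8 of 16. Averaging arrays 3 and 4 left 1 gene higher and none lower. Without hypertrophic array 1, 10 rose, and 3 rose without hypertrophic array 2 or 4 or proliferative array 3 or 4. None fell without hypertrophic array 2 or proliferative array 1 or 3, and 1 without hypertrophic array 3 or 4 or proliferative array 4.

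Around PDK4, 2 of 12 measured genes of the pyruvate dehydrogenase complex, its kinases and related enzymes rose, none fell and 10 did not pass, with a median of -0.0029. Both were sister kinases, PDK1 by 0.45 ± 0.10 and PDK3 by 0.79 ± 0.18 (adjusted p = 0.0291 and 0.0306, up to 0.285 and 0.334 over 16 alternatives), passing in 6 and 7 of them. None passed with arrays 3 and 4 averaged, or without hypertrophic array 2 or 4 or proliferative array 3 or 4, and 1 passed without hypertrophic array 3 or proliferative array 1 or 2.

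Around GLUL, 20 genes of glutamine and glutamate metabolism were measured: 2 rose, 3 fell and 15 missed the threshold, with a median of -0.13. SLC38A1, a glutamine importer, rose by 1.53 ± 0.18 (adjusted p = 0.0021, and 8.7e-05 to 0.0610 over 16 alternatives) by 2 of its 7 probe sets, and the aspartate transaminase GOT1 rose by 0.67 ± 0.10 (adjusted p = 0.0055, up to 0.103). ALDH18A1, which starts proline synthesis from glutamate, fell by 1.07 ± 0.17, and SLC7A5, which exports glutamine in exchange for leucine, fell by 1.39 ± 0.35 (adjusted p = 0.0066 and 0.0406, up to 0.145 and 0.156 over alternatives). Of the 4 SLC7A5 probe sets 2 passed. SLC38A3, of the same gene family as SLC38A1, completes the 3 that fell, at -0.66 ± 0.14. Its adjusted p in limma was 0.0230, up to 0.116 over alternatives, and it passed in 10 of 16. Averaging arrays 3 and 4 left 1 in each direction, and 1 fell without hypertrophic array 2 or 4 or proliferative array 1 or 4.

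Paralogs of the members showed no common shift. Many of those listed are relatives of KLF9, which itself showed no consistent difference, and the list median leans on them. SESN3, PDK1 and PDK3, relatives of SESN1 and PDK4, rose. The 3 that fell are relatives of KLF9 and SGK1, as is KLF7, which rose. FKBP4, LGSN and MAOB, relatives of FKBP5, GLUL and MAOA, did not pass. MAOB had both means below background, and LGSN lay near it, at 4.83 in proliferative and 4.71 in hypertrophic cells. Of 23 measured, 5 rose, 3 fell and 15 did not pass, with a median of -0.33. SESN3, TSC22D2 and KLF7 rose, the latter 2 by 1.48 ± 0.33 and 1.44 ± 0.35 (adjusted p = 0.0274 and 0.0374, up to 0.315 and 0.467 over 16 alternatives), as did PDK1 and PDK3. Of the 3 TSC22D2 probe sets 2 passed. KLF3 fell by 1.35 ± 0.34 (adjusted p = 0.0425, up to 0.123), and KLF12 and SGK2 were the other two that fell, by 1.12 ± 0.15 and 1.21 ± 0.24 (adjusted p = 0.0034 and 0.0176, up to 0.0872 and 0.119). With arrays centred on ribosomal protein genes 8 fell, and with arrays 3 and 4 averaged none rose and 1 fell. None rose without hypertrophic array 2 or 4 or proliferative array 3 or 4, 1 rose without hypertrophic array 3 or proliferative array 1, 3 rose without proliferative array 2, and 1 fell without proliferative array 3 or 4.

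**Figure D4:**
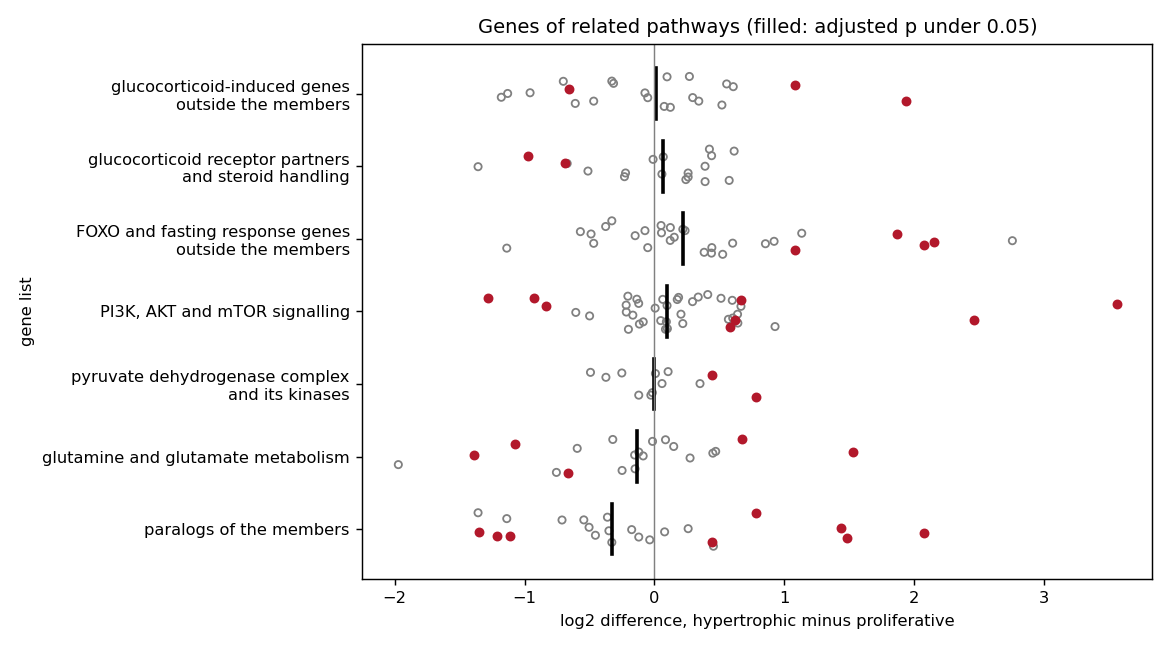
Log2 difference, hypertrophic minus proliferative, of each measured gene in the 7 lists of related genes. Filled red points passed the limma test, open points did not, black bars are list medians, and vertical scatter has no meaning. Medians lie between -0.33 and 0.22, and in most lists points past the test lie on both sides of 0.

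Markers of other cell types differed between the groups as well. Of 13 endothelial markers 4 rose, CDH5 by 3.06 ± 0.33, TEK by 1.33 ± 0.18, VWF by 1.21 ± 0.26 and FLT1 by at least 0.52 (estimate 1.28 ± 0.17), with adjusted p of 0.0013, 0.0039, 0.0231 and 0.0036 in limma. Their summed level was 9.68 to 10.02 on proliferative and 10.25 to 10.55 on hypertrophic arrays, with KDR and EMCN below background. Only part of their probe sets passed, 1 of 3 for VWF, 1 of 2 for TEK and 2 of 3 for FLT1. With arrays 3 and 4 averaged CDH5, TEK and FLT1 passed, and VWF had an adjusted p of 0.0914, the highest of its 16 alternatives, which start at 0.0100. Of 8 osteoclast markers 3 rose, MMP9 by 3.41 ± 0.75, ATP6V0D2 by at least 2.49 (estimate 2.88 ± 0.38) and TNFRSF11A by 0.49 ± 0.11 (adjusted p = 0.0255, 0.0034 and 0.0285). Summed osteoclast levels were 9.79 to 10.80 and 11.91 to 12.80, and OCSTAMP, DCSTAMP and CALCR were below background. With the pair averaged ATP6V0D2 alone passed; MMP9 and TNFRSF11A passed in 11 and 6 of 16 alternatives, with adjusted p of up to 0.0794 and 0.308, and 1 marker passed without hypertrophic array 2 or 4. Of the probe sets 2 of 3 passed for ATP6V0D2 and 1 of 2 for TNFRSF11A. Of 13 leukocyte markers LAPTM5 rose by 2.96 ± 0.32 and CD74 by 1.66 ± 0.43, while CD3E fell by 0.47 ± 0.10 (adjusted p = 0.0013, 0.0453 and 0.0267). Summed leukocyte levels were 9.03 to 9.24 and 9.89 to 10.72, and PTPRC, CD4, ITGB2 and IKZF1 were below background. LAPTM5 passed in all 16 alternatives and was the one marker left with the pair averaged, whereas CD74 and CD3E passed in 8 and 7, with adjusted p of up to 0.114 and 0.184, and 1 of 3 CD74 probe sets passed. Leukocyte markers gave 4 higher without hypertrophic array 1 and 1 without hypertrophic array 2 or any 1 proliferative array; none was lower without hypertrophic array 2 or 4 or any 1 proliferative array. Adipocyte markers gave 2 higher and 1 lower of 12: ADIPOQ and FABP4, both below background in proliferative cells, rose by at least 2.14 and 1.46 (estimates 2.65 ± 0.40 and 2.12 ± 0.19, adjusted p = 0.0053 and 6.51e-04), LPL fell by 0.95 ± 0.14 (adjusted p = 0.0052), and CD36 was below background. With the pair averaged FABP4 passed, and ADIPOQ and LPL, which pass in 14 of 16 alternatives each, had highest adjusted p of 0.0694 and 0.0968.

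Of 8 bone markers 2 rose, SPP1 and MEPE, by 2.77 ± 0.34 and 3.49 ± 0.22 (adjusted p = 0.0023 and 1.75e-04), with summed levels of 12.75 to 13.51 and 14.45 to 15.15. Both passed in all 16 alternatives, and without hypertrophic array 1 there were 4 higher. None of 9 erythroid and none of 14 skeletal muscle markers passed; the globins HBAD and HBZ differed by 1.28 ± 0.56 and -0.25 ± 0.12, and the muscle genes MYOG and TNNI2 by -0.39 ± 0.15 and -0.23 ± 0.13 (adjusted p = 0.220, 0.273, 0.160 and 0.343). KEL and 7 of the muscle markers were below background. Summed erythroid levels were 9.72 to 11.79 on proliferative and 11.82 to 12.09 on hypertrophic arrays, and muscle levels 8.32 to 8.64 and 8.45 to 8.58. Of the 13 chondrocyte markers 2 fell, CYTL1 at -1.95 ± 0.32 and MATN3 at -0.49 ± 0.12 (adjusted p = 0.0083 and 0.0397). Neither passed with arrays 3 and 4 averaged, and they passed in 15 and 6 of 16 alternatives, with adjusted p of up to 0.0603 and 0.556. Without hypertrophic array 1, 1 chondrocyte marker was higher and 4 lower, and without any other single array 1 was lower. In these bulk samples fewer cells of a type and less RNA per cell cannot be told apart, and the part of other cell types in the members' values was not tested.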

How the data were processed

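RNA of isolated, pooled chondrocytes was hybridised to 8 Affymetrix chicken arrays. The deposited values are log2 units made by the authors with RMA, per the submitters' processing notes; its version is not given. The precision is limited by the number of arrays. The 96 control probe sets were left out, which left 38439. Symbols came from the platform annotation, updated by gene identifier through the RefSeq table of assembly GRCg7b: 27168 probe sets have 1 symbol, 177 several and 11094 none.

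The groups were compared by limma 3.58.1 (lmFit, eBayes; R 4.3.3). Two-sided p-values were adjusted by Benjamini-Hochberg over all 38439 probe sets, with a threshold of 0.05. In lists, a gene is its probe set with the highest mean. Where 1 group mean lay below background, a bound sets each array of that group to at least the background level.

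Members and lists were chosen with earlier results of these data known. Genes named from a list are the 4 with the largest change that passed, or where none passed the 2 of smallest p; others are stated as named after their values were seen, or complete a count. Alternatives covered normalisation, a filter on dim probe sets, the variance model, blocks, arrays 3 and 4 averaged, arrays 1 and 2 alone, the probe set that represents a gene, and leaving out each array. A planned description of promoter motifs was not run, because no sequences were used here.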

Additional observations from a re-analysis of the deposited data

Results flagged for a closer look

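GLUL on hypertrophic array 1 lay far from the rest of its group. Its brighter probe set read 5.59 there, while the other 3 hypertrophic arrays read from 8.76 to 9.29. The gap to the nearest array was 0.857 of the group's whole range, above Dixon's 95% critical value for 4 samples. It was the only one of 36 groups checked over the 18 member probe sets that passed this limit, and chance alone passes it in about 1 of 20 groups. Arrays 3 and 4, which nearly repeat each other, are among the 4. Without hypertrophic array 1 the log2 difference of this probe set was 4.45, against 3.59 with it.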

How the results depend on the processing

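Of 283 recomputed log2 differences of member probe sets, 278 moved by less than 1 SD between replicates. The other 5 all came from arrays 1 and 2 alone: 3.05 and 2.21 for the 2 dimmer FKBP5 probe sets, -1.46 for the brighter SGK1 probe set, -0.97 for KLF9 and 0.60 for the brightest of MAOA. Sign changed in 14, none of them of a probe set past the threshold in the test of 8 arrays. Probe sets past the threshold lie several standard errors from 0, so nothing is read from this. Counts below are of features higher, then lower, in hypertrophic cells; the main counts are in the report, and the cause of each change was not tested beyond what the setting itself alters.

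With arrays 3 and 4 averaged, which leaves 3 samples a group, 428 and 327 probe sets passed over the whole array and 2 and 0 of the members. For the lists these were 0 and 0 of the glucocorticoid-induced genes, 0 and 1 of the receptor partners, 1 and 0 of the FOXO and fasting genes, 1 and 0 of PI3K signalling, 0 and 0 of the pyruvate dehydrogenase list, 1 and 1 of the glutamine list, and 0 and 1 of the paralogs. With arrays 1 and 2 alone the same counts were 486 and 683, 3 and 0, 1 and 3, 0 and 4, 1 and 1, 1 and 1, 0 and 0, 0 and 3, and 0 and 3. With arrays 1 and 2 against 3 and 4 as a block, 2680 and 2853 probe sets passed, and 3 glucocorticoid-induced genes were lower, 1 receptor partner higher, 7 FOXO genes higher and 2 lower, and 7 paralogs lower.

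Without dim probe sets 1 FOXO gene and 5 paralogs were lower. With ribosomal centring, which shifts every difference by -0.09, 2 FOXO genes, 5 glutamine genes and 8 paralogs were lower and 1 pyruvate dehydrogenase gene higher. With the probe set of highest interquartile range for each gene, 1 glutamine gene was higher and 5 lower. With a trended, robust variance 1 FOXO gene and 5 paralogs were lower and 1 pyruvate dehydrogenase gene higher.

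Deviations of arrays with the same number had r of 0.153, 0.011, 0.222 and -0.0087. Between proliferative and hypertrophic arrays of different number, r ran from -0.352 to 0.320. These values cannot decide whether the numbers pair the samples, because each group has few arrays and some of them nearly repeat each other. The replicate block gave 1566 and 1628 probe sets, 10 and 0 of the members, 3 glucocorticoid-induced genes lower, 1 FOXO gene lower, 0 pyruvate dehydrogenase genes higher, and 2 paralogs higher and 5 lower.

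Leaving out 1 array gave 831 to 2987 probe sets higher and 677 to 2048 lower, with both maxima without hypertrophic array 1 and the minima without proliferative arrays 4 and 3, in that order. Members gave 5 to 10 higher and 0 lower. Lists gave 1 to 5 and 1 to 2 for glucocorticoid-induced genes, 0 to 2 and 0 to 3 for receptor partners, 2 to 9 and 0 to 1 for FOXO genes, 3 to 10 and 0 to 3 for PI3K signalling, 0 to 2 and 0 for pyruvate dehydrogenase, 2 to 3 and 1 to 3 for glutamine, and 0 to 5 and 1 to 4 for paralogs.

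Precision is limited by 4 arrays a group, of which 2 nearly repeat each other. Signal over background limits NR3C1, both dimmer MAOA probe sets, and the proliferative level of GLUL, PIK3IP1 and the brightest MAOA probe set. It also limits the dimmest FKBP5 probe set on proliferative arrays 3 and 4.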
